A study of Mus musculus with 12 samples.

Results

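Arsb and 6 further genes of lysosomal sulfatases, Arsa, Arsg, Arsk, Galns, Ids and Sgsh, were followed across mouse livers with and without telomerase. The 7 genes were read by 8 of the 28853 probe sets of the array, which name 19938 genes in all: every probe set annotated to Arsb, which has 2, and the brightest for each of the others. Arsb was chosen by its log2 difference between mTERT KO and mTERT WT livers in these same arrays. Every Arsb difference or correlation computed from mTERT arrays is therefore given as a description with no test. The other members were chosen from the same enzyme family, with results of these data already known. All 8 probe sets lay above the background level on 12 of 12 arrays and passed the filter on low values. That level is the 95th percentile of 1023 olfactory receptor probe sets on each array and averaged 4.33 on the log2 scale.

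The study profiled liver RNA of male C57BL/6J mice with Affymetrix arrays of a single colour, 12 animals on 12 arrays. There were 3 mTERT KO and 3 mTERT WT animals, and 3 mTR KO and 3 mTR WT animals. mTERT is the reverse transcriptase of telomerase, encoded by Tert, and mTR is its RNA template, encoded by Terc. Knock-outs were of the first generation without the gene (G1), and in each line the numbered sets 1, 2 and 3 each held a KO and a WT littermate, which gives 6 litters. The animals' ages, beyond being matched, and the design of either deleted allele were not given in the sources used here. Whole liver was homogenised, so fewer cells of a type and less RNA per cell cannot be told apart in any value below.

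Array medians lay between 4.37 and 4.43 on the log2 scale, and the number of arrays limits the precision. The 9 hepatocyte markers measured averaged 12.27 to 12.42 on all arrays, with 9 of 9 above background, as the liver label requires. Acinar genes of the pancreas averaged 7.05 to 11.50 on mTERT KO 1, mTERT WT 1, mTERT WT 2, mTR KO 1 and mTR WT 2, against 3.83 to 4.02 on the other arrays. Skeletal muscle genes averaged 6.97 on mTERT WT 1 and 6.60 on mTERT WT 3, against 3.86 to 4.54 elsewhere. Tert, the targeted gene of the mTERT line, read 3.95, 4.07 and 4.15 in mTERT KO, against 4.13, 4.78 and 4.83 in mTERT WT. The probe set was below background on each mTERT KO array and on mTERT WT 1, whose value was under that of mTERT KO 3. The groups overlapped, and Tert does not check the label of mTERT WT 1. The Terc probe set was above background on 1 of 12 arrays, so it checks nothing about the mTR deletion.

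Sulfatases of the lysosome remove sulfate groups, mostly from the chains of glycosaminoglycans as these are taken apart from their ends. Each enzyme becomes active only after the formylglycine-generating enzyme, encoded by Sumf1, has converted a cysteine of its active site, and most reach the lysosome through the mannose 6-phosphate tag. Loss of a single member can cause a storage disease, because each acts on a sulfate in one chemical position. Arsb, arylsulfatase B, acts on the 4-sulfate of N-acetylgalactosamine in dermatan and chondroitin sulfate, and its loss causes Maroteaux-Lamy syndrome in people. Transcription factors of the TFEB family bind a core of letters CACGTG near the start of many lysosomal genes.

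Promoter sequences are shown to place the members beside that core. They come from RefSeq on GRCm38.p6, where 6 of the 7 members had an entry; Galns had none. The 250 bases before the start held CACGTG, which reads the same on both strands, in 2 of 7 member windows (Arsg has 2 windows), those of Sgsh and Arsa. Among all 32851 windows of that length the share was 6.02%. The stretches around both matches run 5′ to 3′ on the minus strand, with the core in capitals, at chr11:119355511-119355566 for Sgsh and at chr15:89477425-89477467 for Arsa.
Sgsh: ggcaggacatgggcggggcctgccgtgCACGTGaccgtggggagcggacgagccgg
Arsa: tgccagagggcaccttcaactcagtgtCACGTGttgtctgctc
The first base of the core lies 29 bases before the start in Sgsh and 16 bases before it in Arsa. The 250 bases before the start of Arsb, on the plus strand at chr13:93771429-93771678, are shown because Arsb is the gene around which the family was chosen; they are 58.8% G and C and hold no such core.
Arsb: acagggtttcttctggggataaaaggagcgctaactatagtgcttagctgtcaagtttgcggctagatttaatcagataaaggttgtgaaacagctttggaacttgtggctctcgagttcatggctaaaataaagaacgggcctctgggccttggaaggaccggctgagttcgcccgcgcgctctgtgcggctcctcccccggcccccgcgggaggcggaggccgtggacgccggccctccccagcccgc
A match describes the letters only, and no match says only that these letters are absent from this window.

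Arsb was lowest in the livers without mTERT. Probe set 10406663 on chromosome 13 read 6.11, 6.03 and 6.01 on the log2 scale in mTERT KO 1, 2 and 3, against 6.61, 6.85 and 6.67 in the mTERT WT littermates. It read 6.91, 6.89 and 6.99 in mTR KO, against 7.20, 6.77 and 6.94 in mTR WT. The 3 mTERT KO arrays were the lowest of the 12 and close together, and no other array came within their range. Group means were 6.05 ± 0.0516 in mTERT KO, 6.71 ± 0.123 in mTERT WT, 6.93 ± 0.0503 in mTR KO and 6.97 ± 0.216 in mTR WT (SD, n = 3 each). In that order mTR KO and mTR WT overlapped, as did mTERT WT and mTR WT, while mTERT WT lay below mTR KO without overlap, 6.85 at its highest against a lowest mTR KO value of 6.89. The second Arsb probe set, 10406672, gave the same order of group means. It read 5.50, 5.12 and 5.28 in mTERT KO, against 5.81, 5.59 and 5.49 in mTERT WT. In mTR KO it read 6.02, 5.86 and 5.91, against 6.16, 5.79 and 5.97 in mTR WT. Here mTERT KO 1 lay just above mTERT WT 3, so the mTERT groups overlapped, and both mTERT groups held lower means than either mTR group.

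**Figure D1:**
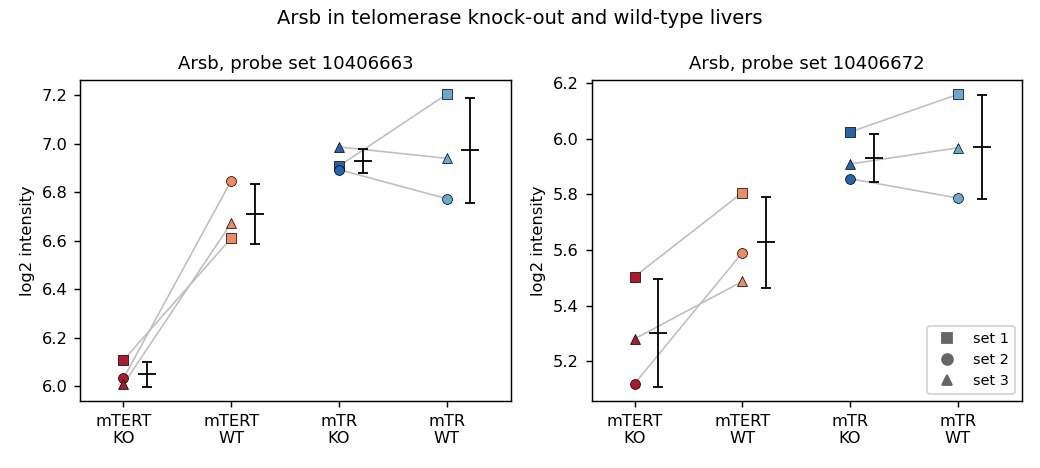
Log2 intensity of both Arsb probe sets on each of the 12 arrays, with littermates joined by grey lines, sets marked by symbol, and the group mean with its SD (n = 3) beside the points. In the left panel the 3 mTERT KO arrays lie between 6.01 and 6.11, below all other arrays; in the right panel they lie between 5.12 and 5.50 and overlap mTERT WT.

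Loss of mTERT went with a log2 difference of −0.66 for probe set 10406663 (SE 0.115, 95% interval −0.91 to −0.41), which is 1.58-fold lower in KO than in WT. Between littermates the KO minus WT difference was −0.50, −0.81 and −0.66 in sets 1, 2 and 3. For probe set 10406672 the difference was −0.33 (SE 0.134, 95% interval −0.62 to −0.03), with −0.30, −0.47 and −0.21 in the 3 litters. Both probe sets were thus lower in KO in 3 of 3 litters. By the adjusted limma p over all 20197 probe sets tested, 0 were called in mTERT KO against mTERT WT (0%, threshold 0.05), and 283 had an unadjusted p under 0.05. The first Arsb probe set was the only 1 of the 8 member probe sets whose mTERT KO and WT groups did not overlap with KO lower; 1.86% of all tested probe sets did so and 2.47% were higher without overlap, and nothing is read from that count since Arsb was chosen on this contrast.

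Marker levels of other tissues varied between single arrays of these groups. The 12 skeletal muscle genes averaged 3.93 to 4.54 in mTERT KO and 3.97 to 6.97 in mTERT WT, with 2 to 6 and 2 to 12 of 12 above background. The 11 pancreas acinar genes averaged 3.83 to 10.06 in mTERT KO and 3.88 to 9.13 in mTERT WT, with 2 to 11 and 1 to 11 of 11 above background. mTERT WT 2, where muscle genes averaged 3.97 and acinar genes 9.13, had the highest value of its group for probe set 10406663, 6.85. For probe set 10406672 the highest of that group was mTERT WT 1 at 5.81, where muscle genes averaged 6.97 and acinar genes 7.59. With both marker means as covariates, the mTERT difference was −0.75 (SE 0.161) for probe set 10406663 and −0.17 (SE 0.169) for probe set 10406672. Leaving out each array in turn gave −0.71 to −0.59 and −0.43 to −0.24, and leaving out set 1 gave −0.74 and −0.34.

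In the mTR line, KO and WT overlapped for both probe sets. The difference itself shares no array with the one that chose Arsb. Its SE, interval and p rest on the spread within all 4 groups, the mTERT groups included. Probe set 10406663 differed by −0.04 between mTR KO and mTR WT (SE 0.115, 95% interval −0.30 to 0.21, limma unadjusted p = 0.716, adjusted p = 1). The littermate differences were −0.30, 0.12 and 0.05, with KO lower in 1 of 3 litters. Probe set 10406672 differed by −0.04 (SE 0.134, 95% interval −0.33 to 0.25, limma unadjusted p = 0.762, adjusted p = 1), with KO lower in 2 of 3 litters. Both intervals include 0, and that of the second probe set also includes its own mTERT difference of −0.33. No member probe set was called among 20197 (0% called, 195 at an unadjusted limma p under 0.05). None of the 8 had groups without overlap in either direction; 2.64% of all tested probe sets were lower in mTR KO without overlap and 1.84% higher. The mTERT effect minus the mTR effect was −0.62 (SE 0.163) for the first Arsb probe set and −0.28 (SE 0.189) for the second, as descriptions. Without set 1 the difference of the first was −0.82 (SE 0.165), and with marker covariates that of the second was −0.10 (SE 0.215).

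Arsb also differed between the colonies of the 2 lines, as descriptions. mTR KO minus mTERT KO was 0.88 for probe set 10406663 (SE 0.115, 95% interval 0.63 to 1.13) and 0.63 for probe set 10406672 (SE 0.134, 95% interval 0.33 to 0.92), with no overlap for either. mTR WT minus mTERT WT was 0.26 (SE 0.115) and 0.34 (SE 0.134), with overlap for both. Kupffer cell markers also differed between the colonies, in the opposite direction to Arsb, with lower averages in mTR. The 10 genes averaged 7.15 to 7.21 in mTR KO and 7.24 to 7.90 in mTERT KO, without overlap. They averaged 7.04 to 7.35 in mTR WT and 7.30 to 7.99 in mTERT WT, with overlap. On every array 9 or 10 of the 10 Kupffer cell markers lay above background. Their part in the Arsb differences was not tested. The wild-type difference of the first probe set was 0.10 without set 1, and that of the second was 0.53 with marker covariates. Across all tested probe sets 0% were called in either colony comparison by limma, with 384 at an unadjusted p under 0.05 for KO livers and 525 for WT livers. Probe sets higher in mTR without overlap made up 2.63% for KO livers and 3.61% for WT livers, and lower ones 3.26% and 2.33%. These comparisons share their arrays with the KO against WT comparisons.

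Arsk, the other member on chromosome 13, removes the 2-sulfate of glucuronate. It read 5.16, 5.59 and 5.50 in mTERT KO, against 5.17, 5.67 and 5.59 in mTERT WT. It read 5.03, 5.76 and 5.67 in mTR KO, against 5.06, 5.63 and 5.87 in mTR WT. Set 1 was the lowest array in each of the 4 groups, while KO and WT littermates of set 1 differed little. KO minus WT was −0.06 (SE 0.242) in the mTERT line and −0.03 (SE 0.242) in the mTR line, neither called by limma (adjusted p = 1 in both). With the litter as a replicate block the SE of both was 0.0892.

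Ids removes the 2-sulfate of iduronate in heparan and dermatan sulfate. It read 5.99, 6.05 and 5.69 in mTERT KO, against 5.40, 5.92 and 5.70 in mTERT WT. It read 5.71, 5.83 and 5.51 in mTR KO, against 5.81, 5.91 and 5.87 in mTR WT. The lowest of the 12 was mTERT WT 1, and the mTR KO array was the lower littermate in 3 of 3 sets although the mTR groups overlapped. KO minus WT was 0.24 (SE 0.145) in the mTERT line and −0.18 (SE 0.145) in the mTR line. The difference of these effects, 0.42 (SE 0.205, 95% interval −0.03 to 0.86), had an unadjusted limma p of 0.0656 and an adjusted p of 1. With muscle and acinar covariates the mTERT value was 0.02.

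Sgsh and Arsg act on heparan sulfate, the first on the N-sulfate and the second on the 3-O-sulfate of glucosamine. Sgsh read 4.71, 4.85 and 4.72 in mTERT KO, against 4.72, 4.60 and 4.79 in mTERT WT. It read 4.62, 4.86 and 4.61 in mTR KO, against 4.61, 4.56 and 4.64 in mTR WT. Its whole range over 12 arrays was 0.29 log2 units, and the KO of set 2 was the highest array of both lines. The mean of Sgsh, 4.69, lay close to the mean background level of 4.33. Arsg read 6.32, 6.91 and 6.68 in mTERT KO, against 6.51, 6.59 and 6.58 in mTERT WT. It read 6.45, 6.34 and 6.70 in mTR KO, against 6.71, 6.30 and 6.61 in mTR WT. For Arsg the mTERT KO values lay on both sides of all 3 mTERT WT values.

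Galns removes the 6-sulfate of N-acetylgalactosamine and of galactose, and Arsa, arylsulfatase A, acts on sulfatide, a lipid and not a glycosaminoglycan. Galns read 4.74, 4.91 and 4.99 in mTERT KO, against 4.82, 4.52 and 4.98 in mTERT WT. It read 4.89, 4.69 and 4.88 in mTR KO, against 4.68, 4.74 and 4.82 in mTR WT. Both lines overlapped between KO and WT, and the mean of Galns, 4.81, lay close to the mean background level of 4.33. Arsa read 6.43, 6.77 and 6.31 in mTERT KO, against 5.64, 6.63 and 6.68 in mTERT WT. It read 6.61, 6.51 and 6.29 in mTR KO, against 6.76, 6.37 and 6.78 in mTR WT. The value of mTERT WT 1 stood below all 11 other arrays, which lay at 6.29 or above. The mTERT difference of Arsa was 0.19 (SE 0.249) with that array and −0.15 without it, and neither was called by limma.

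**Figure D2:**
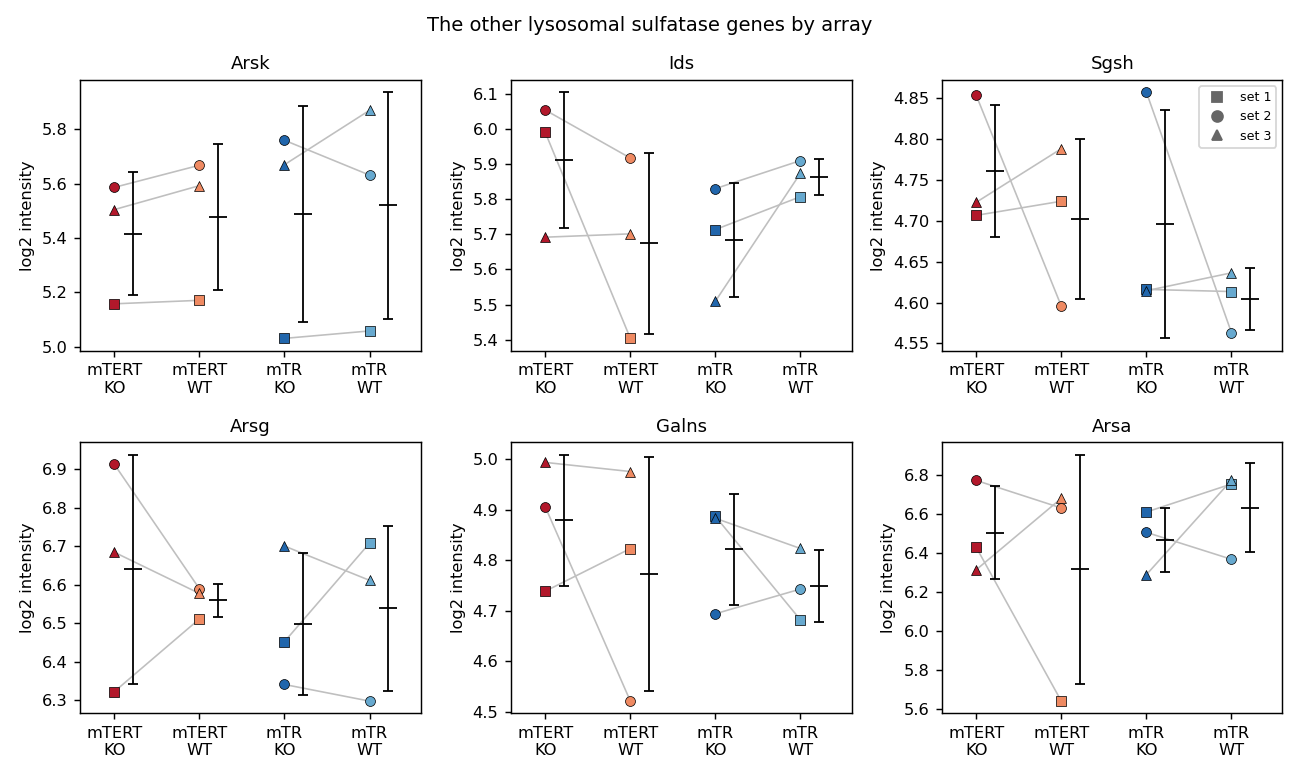
Log2 intensity of the 6 other sulfatase genes on each array, littermates joined by grey lines, sets marked by symbol, and group mean with SD (n = 3) beside the points. KO and WT overlap in every panel; set 1 is the lowest array of each group for Arsk, and mTERT WT 1 at 5.64 is the lowest array for Arsa.

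Taken as a family without Arsb, 0 of 6 genes passed the limma test in either line. In mTERT KO 5 of 6 lay above WT, with differences from −0.06 to 0.24 and a median of 0.09; over all tested probe sets the median was 0.01 and 54.4% lay above 0. In mTR KO 2 of 6 lay above WT, from −0.18 to 0.09 with a median of −0.04; over all tested probe sets the median was −0.01 and 45.9% lay above 0. The unadjusted limma p ranged from 0.128 to 0.806 in the mTERT line and from 0.241 to 0.893 in the mTR line. The 95% intervals of the 6 genes in the mTERT line reached down to −0.59, for Arsk, and up to 0.73, for Arsa. The average KO effect of both lines and the difference of the effects likewise held 0% called of 20197 probe sets, with 143 and 293 at an unadjusted limma p under 0.05, and 0 of these 6 genes.

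**Figure D3:**
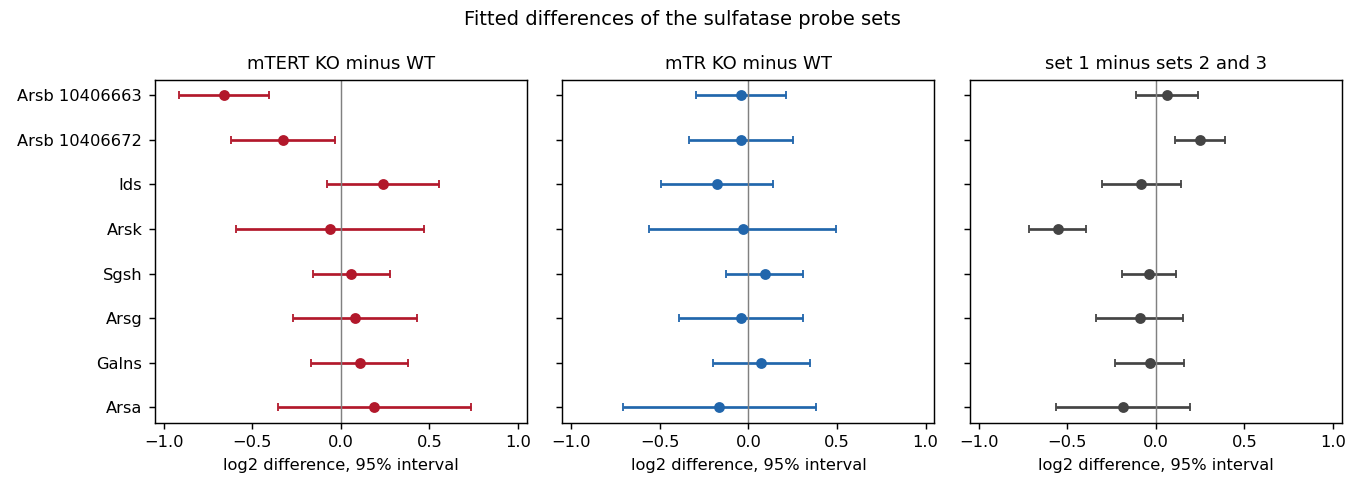
Fitted log2 differences (points) with 95% intervals (lines) of the 8 sulfatase probe sets for mTERT KO minus WT, mTR KO minus WT, and set 1 minus sets 2 and 3. The Arsb values of the mTERT panel, −0.66 and −0.33, are those Arsb was chosen on and are no test; in the mTR panel both lie at −0.04, and in the set panel Arsk lies at −0.56.

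Arsk was lower in set 1 than in sets 2 and 3. This split was chosen because earlier results of these data showed the arrays of set 1 apart. Its calls and limma p-values, here and for the gene lists below, are therefore descriptions. In a fit of group means with a term for set 1, 38.2% of all tested probe sets were called by limma, 17.1% as higher and 21.1% as lower in set 1. Of the 6 members other than Arsb 1 was called, Arsk, so the share is below that background. Arsk lay at −0.56 (SE 0.0729, limma adjusted p = 0.000131) on the log2 scale, and by group its difference was −0.39 in mTERT KO, −0.46 in mTERT WT, −0.68 in mTR KO and −0.69 in mTR WT. Set 1 holds only 2 litters, whose members are not independent, and with the litter as a random block the adjusted limma p of Arsk was 0.000202. For Arsb the set comparison also rests in part on the mTERT arrays that chose it. Probe set 10406672 lay higher in set 1 by 0.25 (SE 0.0637), at 0.30, 0.27, 0.14 and 0.28 in the same 4 groups. Probe set 10406663 differed by 0.06 (SE 0.0804), with set 1 higher in 2 of 4 groups. What the set number stands for beyond the litter is not given. Acinar genes were high on 3 of the 4 arrays of set 1 and on 2 of the 8 others, and with the acinar and muscle means as covariates Arsk was −0.58 (SE 0.13).

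Among sulfatases outside the lysosome, Sulf1 and Sulf2 remove 6-O-sulfates from heparan sulfate at the cell surface. Sulf2 read 5.01, 5.07 and 5.31 in mTERT KO, against 4.40, 4.85 and 5.01 in mTERT WT. It read 4.97, 4.86 and 5.10 in mTR KO, against 5.05, 4.88 and 5.56 in mTR WT. The lowest mTERT KO value exceeded the highest mTERT WT value by less than 0.01, while mTR KO lay below its littermate in 3 of 3 sets. Sulf2 differed by 0.38 (SE 0.19) in the mTERT line and by −0.19 (SE 0.19) in the mTR line, with an adjusted limma p of 1 in both. Sulf2 was above background on 11 of 12 arrays, all but mTERT WT 1. Sulf1 was above background on 2 of 12 arrays, and Arsi and Arsj on none. The activating gene Sumf1 differed by 0.07 (SE 0.0842) and 0.01 (SE 0.0842) in the mTERT and mTR lines, and Sumf2, its paralog without that activity, by 0.20 (SE 0.121) and 0.16 (SE 0.121), none called by limma.

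Other lysosomal genes, and genes of glycosaminoglycans and their core proteins, did not pass the limma test in either line: 0 of 103 genes in 9 lists, the Sulf and Sumf genes included. Over all 20197 tested probe sets 0% were called in either line, and 283 (mTERT) and 195 (mTR) had an unadjusted limma p under 0.05. At an unadjusted p under 0.05 there was 1 in the mTERT line, B3galt6, which adds a galactose to the linker of glycosaminoglycan chains and differed by 0.24 (SE 0.101, unadjusted p = 0.0359, adjusted p = 1), and 0 in the mTR line. B3galt6 averaged 4.42 in mTERT KO and 4.18 in mTERT WT, close to the mean background level of 4.33. Over these lists 64 of 103 lay above 0 in the mTERT line with a median of 0.02, and 42 of 103 in the mTR line with a median of −0.02. For all tested probe sets 54.4% and 45.9% lay above 0, with medians of 0.01 and −0.01. Chondroitin synthase Chsy1 differed by −0.25 (SE 0.133) in mTERT KO. The other enzymes of glycosaminoglycan breakdown spanned −0.15 for the heparanase gene Hpse to 0.14 for the hyaluronidase gene Hyal2 in the mTERT line, over 11 genes. The 4 transcription factors of the TFEB family spanned −0.14 for Tfe3 to 0.02 for Tfeb. Sorting genes of the mannose 6-phosphate route spanned −0.06 for the receptor gene Igf2r to 0.17 for Sort1.

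The same lists held calls for the littermate set, 16 higher and 34 lower in set 1 of 103 genes, against 17.1% and 21.1% of all tested probe sets. These calls describe a split that was chosen on these data. Of 26 other lysosomal hydrolases 4 were higher and 12 lower, among them the acid ceramidase gene Asah1 at −0.83 (SE 0.0657, limma adjusted p = 3.89e-06), with Lipa, lysosomal acid lipase, at −0.60 and Aga at −0.55. Of 17 lysosomal membrane genes 2 were higher and 8 lower, among them the proton pump gene Atp6v1b2 at −0.61 and the cystine transporter gene Ctns at −0.57. Glycosaminoglycan breakdown had 2 higher and 2 lower of 11, with the iduronidase gene Idua at 0.34 and the beta-galactosidase gene Glb1 at −0.32. Chain synthesis and sulfation had 3 higher and 6 lower of 26, with Hs6st1 at 0.69 and Hs2st1, which add the 6-O- and 2-O-sulfates of heparan sulfate, at −0.60. Proteoglycan core proteins had 4 higher and 2 lower of 10, sorting genes 0 and 2 of 5, and transcription factors 1 and 1 of 4, with Tfe3 at 0.49 and Tfec at −0.36.

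**Figure D4:**
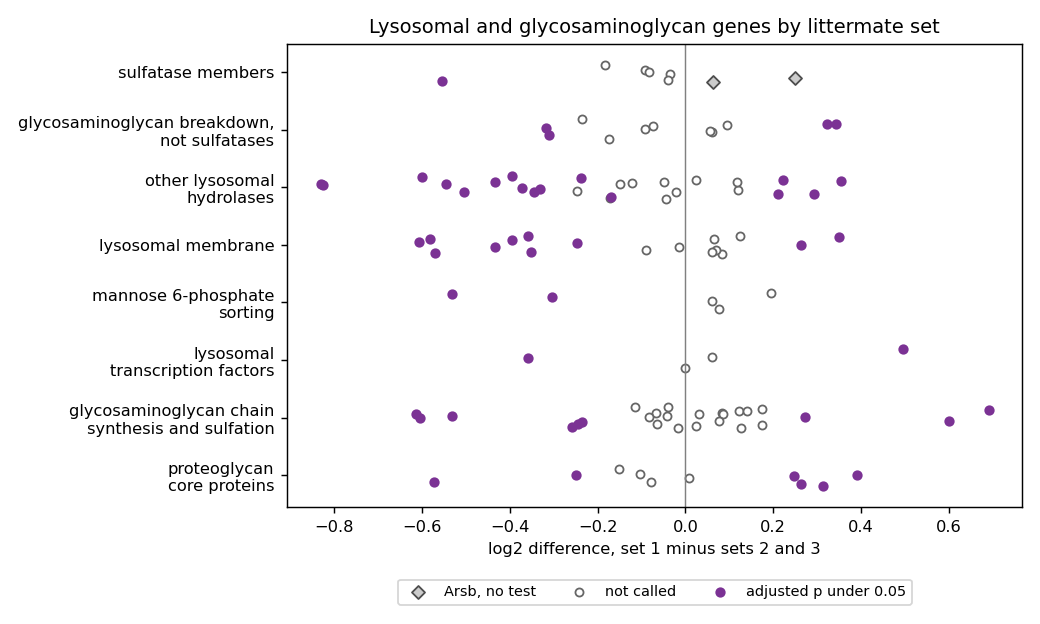
Log2 difference of set 1 minus sets 2 and 3 for the 8 sulfatase probe sets and for each gene of 7 lysosomal and glycosaminoglycan lists, filled where the adjusted limma p was under 0.05 and with diamonds for Arsb, which has no test; vertical scatter within a row only separates points. Calls lie on both sides of 0, from −0.83 for Asah1 to 0.69 for Hs6st1. The set split was chosen with earlier results of these data known.

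Arsb, Arsk and the targeted gene Tert lie on the same chromosome, 13, while Terc lies on chromosome 3. In the RefSeq order of GRCm38.p6, 234 annotated genes separate Tert from Arsb, 79 of them coding, and 65 separate Tert from Arsk. Of the 56 genes tested between Tert and Arsb, 4 were higher in mTERT KO than in mTERT WT without overlap, 0 were lower, and 0 were called by limma; the median difference was −0.01, and the background shares are 2.47% and 1.86%. The 4 were Glrx, Rhobtb3, Tppp at 0.45 and Ssbp2 at 0.21. Tppp averaged 4.29 in mTERT KO and 3.84 in mTERT WT, both under the mean background level of 4.33, and differed by −0.41 in the mTR line. In the mTR line 1 gene, Atg10, was lower without overlap at −0.22 and 0 were higher, with a median of −0.05. Ssbp2 and Atg10 are named after their values were seen. The largest difference without overlap was that of Glrx, glutaredoxin, which read 8.29, 8.13 and 8.33 in mTERT KO, against 7.86, 7.27 and 7.22 in mTERT WT, a difference of 0.80 (SE 0.154). Its direct neighbour in that order, Rhobtb3, read 5.51, 5.99 and 5.79, against 5.23, 5.20 and 4.99, a difference of 0.62 (SE 0.179). In the mTR line these genes differed by −0.04 and 0.05. The lower side was led by Ckmt2, a creatine kinase gene of muscle, at −1.35 (SE 0.461), which was high only on mTERT WT 1 and mTERT WT 3, the arrays with high muscle genes. The 5 named genes on either side of Arsb, from Homer1 to Dmgdh and from Lhfpl2 to Otp, differed by −0.09 to 0.18 in the mTERT line, and none was called by limma. Otp, at 0.115, was higher in mTERT KO without overlap, as were 2.47% of all tested probe sets. The other neighbours overlapped. Among these neighbours are Bhmt and Bhmt2, which use betaine or a related donor to make methionine and differed by −0.03 and 0.00.

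**Figure D5:**
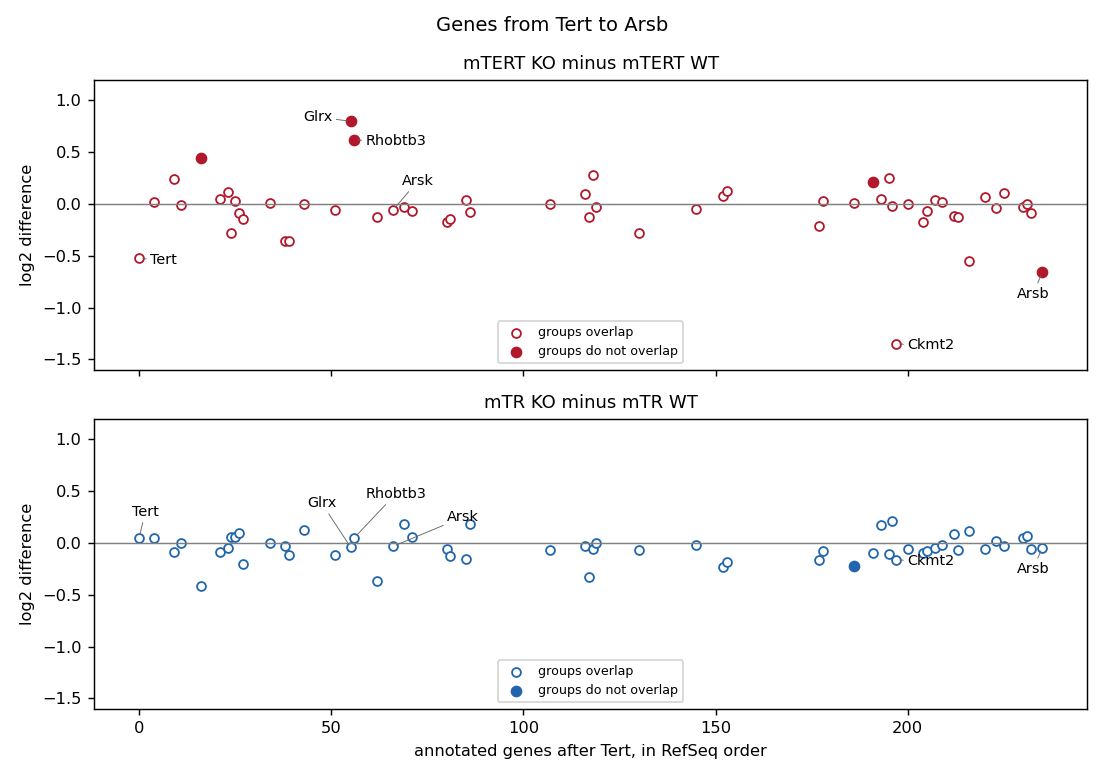
Log2 difference of KO minus WT for Tert, Arsb and the 56 genes tested between them, against the number of annotated genes after Tert; filled points have groups of 3 that do not overlap. Arsb at −0.66 is the only filled point below 0 in the mTERT panel, where Glrx at 0.80 and Rhobtb3 at 0.62 lie adjacent above 0, and in the mTR panel these genes lie near 0.

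Likeness to Arsb probe set 10406663 was described by Pearson's r over the 12 arrays for 10353 named genes above background on average; the arrays share litters and groups. The most alike were Stxbp4 (r = 0.871), the ferredoxin gene Fdx1 (0.855), Ss18 (0.845), Tbc1d14 (0.837) and Tert (0.811). With group means kept, these r values rest in part on the low mTERT KO values by which Arsb was chosen, and are no test. Tert is the gene targeted in those livers and was below background on every mTERT KO array. The r of Tert was 0.982 over the 8 arrays without set 1 with group means kept; with them removed it was 0.515 over those 8 arrays and −0.01 over all 12. After removal of group means the most alike were Ncoa2 (r = 0.946), Phf12 (0.894), Dido1 (0.89), Nav2 (0.887) and Lrrc45 (0.881), none of which was among the 5 before removal. The second Arsb probe set had r = 0.893, and 0.461 with group means removed. The other members had r = 0.16 for Arsa, 0.05 for Arsk, −0.16 for Arsg, −0.27 for Ids, −0.42 for Galns and −0.51 for Sgsh over the 12 arrays. With group means removed, r was 0.44 for Arsa, −0.28 for Arsk, 0.40 for Arsg, 0.17 for Ids, −0.46 for Galns and −0.23 for Sgsh.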

How the data were processed

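Liver RNA of 12 mice was measured on 12 arrays. The values are the log2 intensities that the authors deposited in the value table of the series; the tools listed in the submitters' processing notes are PLIER, GCOS 1.4 and Affymetrix Expression Console, with no role or order. The log base was read as 2, since values span 2.62 to 13.83, and added constants, normalization and probe filters are not given in the sources used here. Of 28853 probe sets 21789 had 1 gene symbol, 1621 several and 5443 none, and 21698 were matched to RefSeq by identifier for current names. The members and gene lists, the rule for the genes named, and the split of set 1 from sets 2 and 3 were chosen with earlier results of these data known. That rule takes all members, Tert and Terc, the other sulfatases and modifying factors, the list members with the smallest p, the genes most like Arsb and its neighbours; not every gene it picks is printed.

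Groups come from the sample labels. limma 3.58.1 (R 4.3.3) fitted 4 group means to all 12 arrays with eBayes; the 20197 probe sets whose mean reached the 30th percentile were tested, two-sided, with Benjamini-Hochberg adjustment and a threshold of 0.05. SE and 95% intervals are from that fit, which was tested on simulated data. The series text calls each set littermates, so the set number pairs KO with WT. After removal of group means same-numbered arrays correlated at 0.692, 0.135 and 0.623 (mTERT) and 0.458, 0.151 and 0.552 (mTR), although KO 2 was closer to WT 3 (0.416 and 0.464). Set 1 stands apart in both lines, so these correlations cannot tell a shared litter from a shared set number. The alternatives were other filters, normalizations, weights and variance settings, litter blocks, marker covariates and arrays left out. The litter as a random block, and the block without set 1, were chosen after seeing the data.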

Additional observations from a re-analysis of the deposited data

Results flagged for a closer look

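Sulf2, a cell-surface sulfatase gene outside the lysosomal family, differed in opposite directions between littermates of the 2 lines. KO lay above WT in 3 of 3 mTERT litters, by 0.61, 0.23 and 0.30 on the log2 scale, and below WT in 3 of 3 mTR litters, by −0.08, −0.02 and −0.46. The value of 0.61 rests on mTERT WT 1, which read 4.40, below the background level of that array, 4.48. Sulf2 was flagged for its opposite directions in these same arrays, so the limma p-values that follow are descriptions and no test. The share of all probe sets with such opposite directions is not given here. The mTERT effect minus the mTR effect was 0.56 (SE 0.269, 95% interval −0.02 to 1.15), with an unadjusted limma p of 0.0587 and an adjusted p of 1, so the difference did not pass the threshold over all probe sets. With the litter as a replicate block the unadjusted limma p was 0.00556 and the adjusted p 0.751, and with acinar and muscle covariates the difference was 0.29 (SE 0.304). The part of those markers in it was not tested further.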

How the results depend on the processing

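Over 56 values of the 8 member probe sets, 1296 alternative values were computed: 1288 kept their call or stayed within the spread between replicates, 2 crossed the threshold, 6 moved further and 0 reversed a call. Those 2 were Arsb probe set 10406672 in set 1, with array weights and with marker covariates, a value given only as a description. Among values that were never called, 97 alternatives changed sign. The 0 probe sets called in each KO and colony comparison stayed at 0 with a replicate block (the litter for KO against WT, the set number shared by both lines for colonies), which changed no call, while probe sets at an unadjusted limma p under 0.05 numbered 1037 (mTERT) and 851 (mTR). Without set 1, with or without that replicate block, 1 probe set was called in mTERT, 1 in mTR and 1 for their average, each time Dmbt1, with KO lower. Leaving out 1 array gave 0 to 41 calls in the mTERT line (41 without mTERT WT 2, 1, Glrx, without mTERT WT 1), and without mTERT WT 2 there were 28 for the average, 30 for the difference of effects and 42 for mTR WT against mTERT WT; leaving out any other single array kept the last 3 counts at 0. The cause was not tested. Dmbt1 is named after its values were seen. In mTR KO against mTERT KO 1 passed with array weights, Arsb probe set 10406663, which is no test since Arsb was chosen on those mTERT KO arrays. For set 1 the 7709 calls became 4657 with array weights and 2554 with marker covariates, and 5831 to 7660 with 1 array left out. The replicate block could not be run for the set comparison, which it contains. The number of arrays, 3 per group, limits the precision.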
